A study of Homo sapiens with 6 samples.

Results

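The cell proliferation genes described here are 49 genes of DNA replication and mitosis, chosen by symbol. All 49 had a row in the deposited table of 31410 gene symbols, and 46 of them were bright enough to be tested, among 12653 genes tested in all. They were followed across 6 arrays of stage 6 cultures, the last stage of a stepwise pancreatic differentiation of human embryonic stem cells that holds insulin-expressing cells. Differentiations 1 and 2 came from the line H1 and differentiation 3 from the line HUES8, both established and without an engineered allele in the labels. From each differentiation a live sample (fresh, unsorted cells, RNA by a column kit) was compared with a processed sample, which had gone through fixation in 4% paraformaldehyde, permeabilization, antibody staining and a sort that kept every cell, and whose RNA was taken with a kit for fixed material. HUES8 is represented by 1 culture, so line and culture cannot be told apart, and in such bulk RNA fewer dividing cells and less RNA per cell cannot be told apart either.

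Dividing cells copy their DNA in S phase and separate the copies in mitosis. E2F factors switch on the replication genes at the passage from G1 into S phase, and the mitotic genes follow later through the MuvB complex with B-MYB and FOXM1, which acts at CHR elements, and through NF-Y, which binds CCAAT boxes. In a pancreatic differentiation, progenitors divide while hormone-positive endocrine cells have mostly left the cycle, so this programme is commonly read as a measure of the dividing cells in a culture.

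The members carry part of this split in their promoters, in E2F sites and CHR elements but not in CCAAT boxes. Promoter sequences from RefSeq (GRCh38.p14) were found for 39 of the 49 members, and windows of 300 bases, from 250 before to 50 after each start, were searched on both strands. E2F sites (TTTCCCGC, TTTGGCGC or TTTCGCGC) lay in 11 of 14 promoters of replication members (78.6%) and in 3 of 25 of mitosis members (12%), against 3.3% of 27305 genes. CHR elements (TTTGAA or TTTAAA) showed the opposite split, with 3 of 14 (21.4%) and 21 of 25 (84%), against 27.9% of all genes. CCAAT boxes (CCAAT) were in 11 of 14 (78.6%) and 22 of 25 (88%), against 39.7%. In the first window of each gene, the CHR matches of mitosis members had a median position of -26.5 bases from the start and the CCAAT matches of -72.5 bases. TTTAAA on one strand is also TTTAAA on the other and was counted once, a gene counted when any of its windows held the motif, and a match is a description of letters, not a bound site.

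The 250 bases before the start are shown for 5 members. They are named in the culture comparison, where no member was called, or their promoter shows the split. These are TYMS and GINS2 of replication, CCNB1 and KIF20A of mitosis, and AURKB, whose windows hold a CCAAT box but neither of the other motifs. Capitals mark the motif matches, on either strand. TYMS is at chr18:657403-657652 (plus strand), GINS2 at chr16:85688955-85689204 (minus strand), CCNB1 at chr5:69166900-69167149 (plus strand), KIF20A at chr5:138178862-138179111 (plus strand), and the first of both AURKB windows at chr17:8210226-8210475 (minus strand).
TYMS: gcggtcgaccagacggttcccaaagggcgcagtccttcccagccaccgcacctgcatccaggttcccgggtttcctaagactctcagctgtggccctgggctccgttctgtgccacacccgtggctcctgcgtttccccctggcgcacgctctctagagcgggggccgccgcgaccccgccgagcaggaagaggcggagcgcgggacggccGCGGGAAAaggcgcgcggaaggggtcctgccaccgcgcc
GINS2: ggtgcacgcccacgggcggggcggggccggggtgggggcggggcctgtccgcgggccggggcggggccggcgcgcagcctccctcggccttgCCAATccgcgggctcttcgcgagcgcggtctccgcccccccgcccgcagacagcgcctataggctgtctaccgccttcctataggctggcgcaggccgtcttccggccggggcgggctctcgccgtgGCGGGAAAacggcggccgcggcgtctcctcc
CCNB1: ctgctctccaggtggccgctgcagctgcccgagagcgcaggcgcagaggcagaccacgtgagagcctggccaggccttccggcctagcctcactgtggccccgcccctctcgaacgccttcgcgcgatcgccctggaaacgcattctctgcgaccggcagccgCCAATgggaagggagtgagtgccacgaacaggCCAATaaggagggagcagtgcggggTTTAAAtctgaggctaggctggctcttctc
KIF20A: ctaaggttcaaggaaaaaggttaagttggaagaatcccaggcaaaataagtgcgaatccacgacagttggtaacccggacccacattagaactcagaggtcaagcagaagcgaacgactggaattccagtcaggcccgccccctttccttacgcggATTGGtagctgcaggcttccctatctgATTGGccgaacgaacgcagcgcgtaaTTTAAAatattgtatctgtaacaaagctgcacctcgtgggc
AURKB: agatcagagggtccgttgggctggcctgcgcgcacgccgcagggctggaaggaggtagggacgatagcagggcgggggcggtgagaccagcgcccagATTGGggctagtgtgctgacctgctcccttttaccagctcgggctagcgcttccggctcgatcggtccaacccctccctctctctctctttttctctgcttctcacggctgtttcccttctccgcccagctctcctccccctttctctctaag
GINS2 and TYMS hold the E2F letters GCGGGAAA, the reverse complement of TTTCCCGC, close to the start. CCNB1 and KIF20A each hold a pair of CCAAT boxes, read as ATTGG in KIF20A, followed by TTTAAA.

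**Figure D1:**
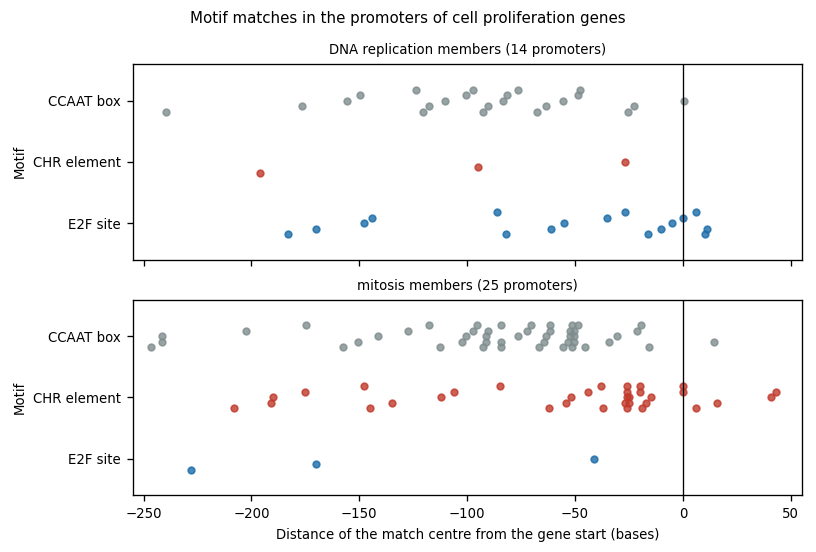
Positions of motif matches in the first promoter window of each gene, for replication members (upper panel) and mitosis members (lower panel). The horizontal axis is the distance of each match centre from the gene start in bases, each point is 1 match, and points are spread vertically within a motif so that they can be told apart. E2F sites lie mostly in the upper panel (17 matches against 3) and CHR elements mostly in the lower (34 against 3). The upper panel holds 14 promoters and the lower 25. Overlapping E2F matches, found in MCM2 and MCM6, were counted separately.

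Most members were bright enough to be measured on every array. A gene was tested when its intensity was at least 40 on at least 3 arrays. Of the 46 tested members 44 reached 40 on all 6, as did 10621 of the 12653 genes tested. The median intensity of the tested members was 422 and 438 (live and processed) in H1 differentiation 1, 425 and 435 in H1 differentiation 2 and 377 and 343 in HUES8, while the median over all genes tested stayed between 175 and 180 (intensities of different genes depend on their probes and are not ranked here). The 3 members too dim to be tested were CDC6, which loads the helicase onto origins, at 4.81 to 30.2, CCNE2, a cyclin of the G1/S transition, at 9.35 to 28.5, and RRM2, the small subunit of ribonucleotide reductase, at 19.6 to 65.9 with 2 arrays above 40. They are given by these ranges only.

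**Figure D2:**
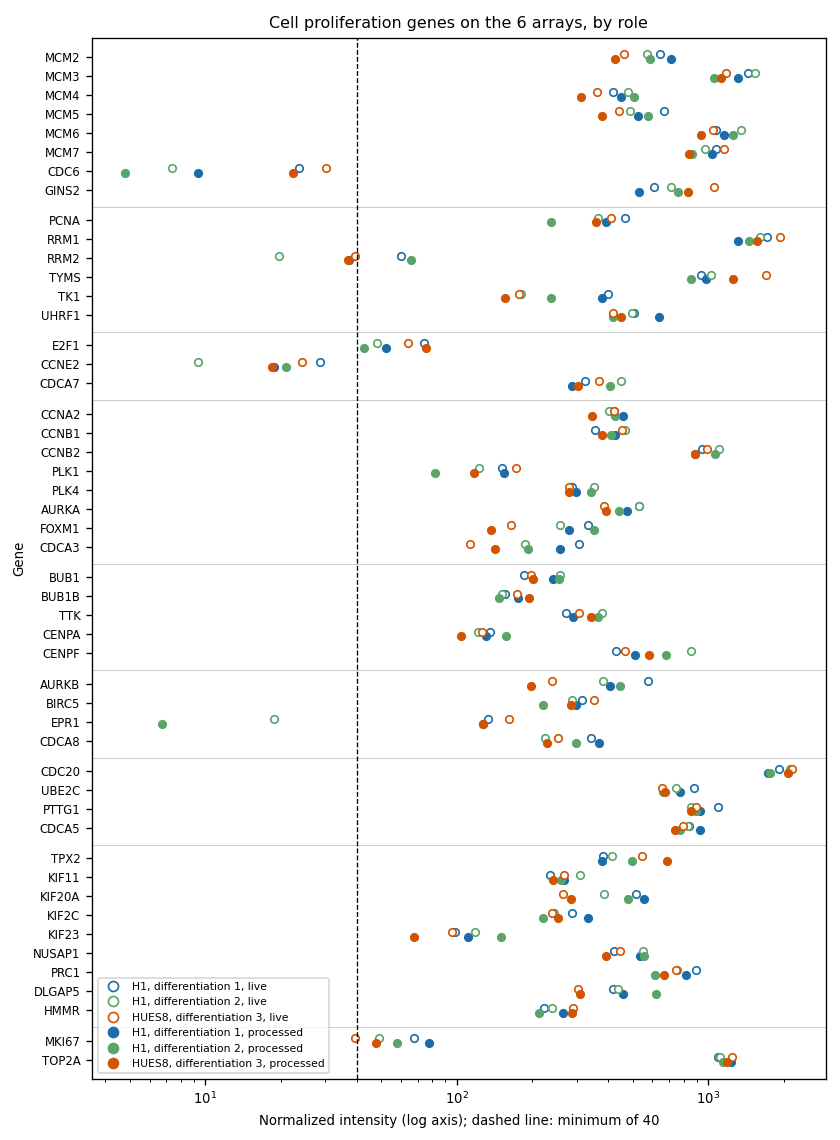
Normalized intensity (horizontal log axis) of the 49 members on the 6 arrays, grouped by role from helicase loading at the top to chromosome structure at the bottom. Open points are live and filled points processed samples, colours are differentiations, and the dashed line is the minimum of 40. CDC6 and CCNE2 lie below the line on every array, and EPR1 lies below it on both arrays of H1 differentiation 2 only.

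The first comparison asked whether processing shifts the measured level of these transcripts. Fixing, staining, sorting and the change of RNA kit went together and cannot be told apart. No member was called between processed and live samples (limma with the differentiation as a block, Benjamini-Hochberg adjusted p under 0.05), and no other gene was either, so percent called was 0 of 12653 genes. Over all genes this count rested on every pair: it was 105 without differentiation 1, 688 without differentiation 2 and 12 without differentiation 3, with 0 members called each time. At an unadjusted p under 0.05 there was 1 member of 46, PCNA, against 9.65% of all genes. The median difference over the members, processed minus live on the log2(intensity + 20) scale, was -0.02, and it was 0.04 after the arrays were scaled to a common median; over all genes tested these medians were -0.03 and 0.03. The mean difference was below 0 for 26 of 46 members and for 56.1% of all genes. The 95% interval of every tested member lay inside 2-fold in either direction, as did that of 97.9% of all genes, with interval half-widths of 0.29 to 0.37 for the members. With 3 pairs an exact sign-flip test of 1 gene cannot go below p = 0.25.

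Proliferating cell nuclear antigen, PCNA, the sliding clamp of the DNA polymerases, had the lowest difference. Its intensities, live then processed, were 466 and 391 in H1 differentiation 1, 365 and 236 in H1 differentiation 2, and 410.1 and 357 in HUES8. The processed value was below the live one in 3 of 3 pairs, and pair 2 held the widest gap of any member (-0.59) and the only one past 1.5-fold. Of all genes, 3.33% were past 1.5-fold in pair 1, 8.55% in pair 2 and 7.88% in pair 3. The mean difference was -0.34 ± 0.22 (SD, n = 3 pairs), with a limma adjusted p = 0.502, the smallest of any member here. RRM1, the large subunit of ribonucleotide reductase, was also lower in each pair, with 1714 and 1315 in H1 differentiation 1, 1612 and 1453 in H1 differentiation 2, and 1929.5 and 1569.8 in HUES8 (mean -0.27 ± 0.12). Among the helicase subunits, MCM3 (-0.24 ± 0.26) and MCM7 (-0.22 ± 0.20) were lower in all pairs, while MCM2, MCM4, MCM5 and MCM6 changed sign between pairs. None of these passed the adjusted test.

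The 14 tested replication members had a median difference of -0.13 and the 32 mitosis members of 0.01, and 5 of the 14 and 5 of the 32 were lower in all 3 pairs. In total 10 of 46 members were lower in every pair (19.8% of all genes): MCM3, MCM7, PCNA, RRM1, CDCA7, CCNB2, BIRC5, EPR1, CDC20 and PRC1. Both EPR1 arrays of pair 2 were below 40, and without EPR1 the count was 9. Another 3 were higher in every pair (13.7% of all genes), KIF20A, DLGAP5 and MKI67, and 33 were mixed. The number lower was 9 and the number higher 9 after scaling to a common median, where 12.1% of all genes were lower and 21.2% higher in every pair.

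Of the mitotic regulators, the kinase PLK1, needed for centrosome maturation and mitotic entry, had values of 151 and 154 in H1 differentiation 1, 122 and 81.7 in H1 differentiation 2, and 171 and 117 in HUES8. Its difference of -0.31 ± 0.29 was carried by pairs 2 and 3, the H1 differentiation 1 arrays lying close together. Cyclin B1, CCNB1, which activates CDK1 at mitotic entry, read 355 and 427 in H1 differentiation 1, 467 and 410.3 in H1 differentiation 2, and 452 and 377 in HUES8, with a difference above 0 in pair 1 and below 0 in the others (mean -0.06 ± 0.27, which was 0.01 after scaling to a common median). At the upper end stood DLGAP5, a spindle assembly factor, at 417 and 458 in H1 differentiation 1, 438 and 617 in H1 differentiation 2, and 304 and 308 in HUES8 (mean 0.21 ± 0.24). TPX2, which targets and activates Aurora A on the spindle, had 381 and 378 in H1 differentiation 1, 413 and 496 in H1 differentiation 2, and 545 and 684 in HUES8 (mean 0.19 ± 0.17). The widest gap was in pair 2 for DLGAP5 and in pair 3 for TPX2, and neither passed the test.

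The proliferation antigen MKI67, which coats mitotic chromosomes, was dim, so its differences are understated by the added 20. Its values were 67.6 and 77.7 in H1 differentiation 1, 49.3 and 57.8 in H1 differentiation 2, and 39.3 and 47.8 in HUES8, higher in the processed sample of each pair by a like amount (mean 0.17 ± 0.02; limma, adjusted p = 0.668). TOP2A, which untangles the replicated chromosomes, had 1090.4 and 1231 in H1 differentiation 1, 1109 and 1142 in H1 differentiation 2, and 1241 and 1187 in HUES8, without a common sign over the pairs (mean 0.05 ± 0.12).

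**Figure D3:**
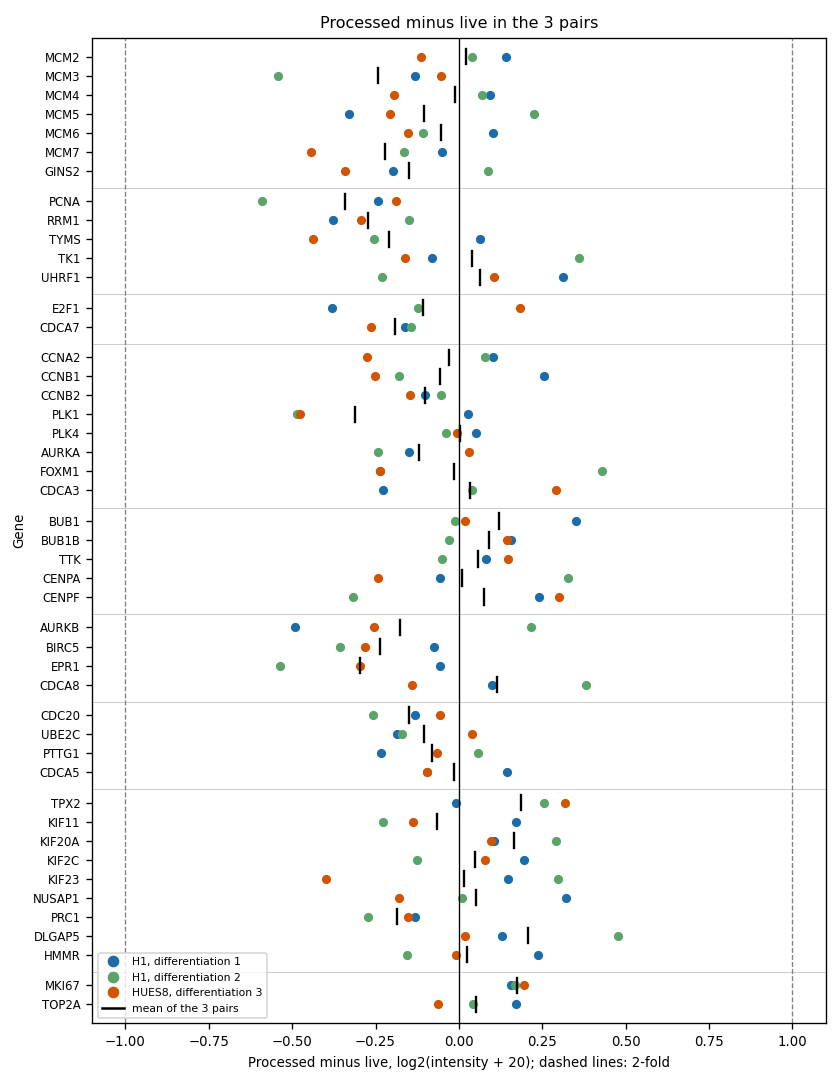
Processed minus live on the log2(intensity + 20) scale for the 46 tested members, ordered by role. Each coloured point is 1 pair and the black bar is the mean of the 3 pairs. Every point lies inside the dashed lines at 2-fold, and 1 point, PCNA in differentiation 2, is past 1.5-fold (8.55% of all genes in that pair). The EPR1 point of differentiation 2 comes from arrays below 40.

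The second comparison set the HUES8 culture against the mean of the H1 cultures, each culture being the mean of its live and processed arrays. Here 219 genes were called over the whole table (percent called 1.73, with 1.24 lower and 0.49 higher in HUES8), and no member was. At an unadjusted p under 0.05 there were 4 members (AURKB, FOXM1, KIF20A and CDCA3) against 10.6% of all genes. The member median was -0.14 (-0.08 with the arrays median-scaled, -0.14 with them quantile normalized) where that of all genes was 0.02, and 31 of 46 members were below 0 against 48.2% of all genes. The fit has 1 residual degree of freedom. Of the 95% intervals, 25 of 46 from members lay inside 2-fold (46.3% of all genes), and the others reach past it.

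AURKB, the kinase of the chromosomal passenger complex, which corrects faulty kinetochore attachments, was the lowest in HUES8. Its intensities were 578 and 406 in H1 differentiation 1, 381 and 446 in H1 differentiation 2, and 239 and 197 in HUES8. Both HUES8 arrays were below all 4 H1 arrays, and H1 stood 1.97-fold over HUES8 (-0.98 ± 0.35 on the log2 scale, ± SE; limma, adjusted p = 0.234). The remaining members of the complex did not show this order: BIRC5 (survivin) read 316 and 299 in H1 differentiation 1, 288 and 221 in H1 differentiation 2, and 350.4 and 285 in HUES8, overlapping between the lines, and CDCA8 (borealin) 343 and 369 in H1 differentiation 1, 225 and 299 in H1 differentiation 2, and 253 and 228 in HUES8.

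FOXM1, the transcription factor of G2/M genes, was next with 332 and 279 in H1 differentiation 1, 256 and 352 in H1 differentiation 2, and 164 and 136 in HUES8. The HUES8 values again lay below every H1 value (-0.92 ± 0.34, adjusted p = 0.274). CDCA3, a mitotic entry factor, had 306 and 258 in H1 differentiation 1, 187 and 192 in H1 differentiation 2, and 112 and 142 in HUES8, and KIF20A, a kinesin of the central spindle, 516 and 557 in H1 differentiation 1, 386 and 478 in H1 differentiation 2, and 264 and 284 in HUES8. Both showed the same order of arrays (-0.78 ± 0.36, adjusted p = 0.466, and -0.77 ± 0.35, adjusted p = 0.449), and in CDCA3 the H1 cultures themselves differed by 0.52. DLGAP5, given above, was also lower in both HUES8 arrays (-0.61 ± 0.35).

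Other members of the same machinery were not ordered in this way. Cyclin B1 was level (0.00 ± 0.35), as was TTK, a spindle checkpoint kinase (0.00 ± 0.35), and TOP2A was slightly above 0 (0.09 ± 0.34). In the checkpoint group all 5 members (BUB1, BUB1B, TTK, CENPA and CENPF) had intervals inside 2-fold (46.3% of all genes). None had separate arrays, where 18.5% of all genes had HUES8 below and 18.8% above all H1 arrays. The same held for the 4 members of anaphase control, CDC20, UBE2C, PTTG1 and CDCA5, with differences between -0.20 and 0.17. The array order of some of these depended on scaling. After scaling to a common median, CDC20 was above all H1 arrays in HUES8. After quantile normalization BUB1B was above them, and UBE2C and CDCA5 were below them. MKI67, whose values are above, was lower in both HUES8 arrays than in all H1 arrays (-0.38 ± 0.35, adjusted p = 0.842), at intensities near the minimum of 40.

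The replication members were split. MCM2, MCM4, MCM5 and MCM6, subunits of the replicative helicase, were below all H1 arrays in HUES8, for example MCM2 with 642 and 709.6 in H1 differentiation 1, 569.6 and 585 in H1 differentiation 2, and 462 and 426 in HUES8 (-0.48 ± 0.35). MCM7, a subunit of the same ring, was level (0.00 ± 0.35), and GINS2, which joins the ring in the active helicase, was above all H1 arrays with 609.6 and 529 in H1 differentiation 1, 714 and 761 in H1 differentiation 2, and 1054 and 828 in HUES8 (0.52 ± 0.35). Thymidylate synthase, TYMS, which makes dTMP, was the highest of the well measured members at 940.1 and 982 in H1 differentiation 1, 1022 and 853 in H1 differentiation 2, and 1705 and 1255 in HUES8, HUES8 standing 1.53-fold over H1 (0.62 ± 0.34, adjusted p = 0.603). Thymidine kinase, TK1, which supplies dTMP by salvage, had 399 and 376 in H1 differentiation 1, 181 and 238 in H1 differentiation 2, and 177 and 156 in HUES8, lower in HUES8 (-0.71 ± 0.39) and in H1 differentiation 2 alike. PCNA had 0.10 ± 0.36, with a sign that turned with the H1 culture used (0.36 without H1 differentiation 1 and -0.15 without H1 differentiation 2). None of these differences passed the adjusted test.

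Aurora A, AURKA, which builds the spindle poles, read 531 and 477 in H1 differentiation 1, 528 and 444 in H1 differentiation 2, and 385 and 393 in HUES8 (-0.33 ± 0.34). Its HUES8 values lay below all H1 values, but by less than those of AURKB. PLK4, the kinase of centriole duplication, had 287 and 298 in H1 differentiation 1, 352 and 342 in H1 differentiation 2, and 279.6 and 278 in HUES8 (-0.18 ± 0.35), with the HUES8 values just under the lowest H1 array. HMMR, a spindle protein that binds hyaluronan, was ordered the other way with 221 and 264 in H1 differentiation 1, 239 and 213 in H1 differentiation 2, and 289.6 and 288 in HUES8 (0.28 ± 0.34). TPX2, whose intensities are given above, also had both HUES8 arrays over all H1 arrays, with a larger difference of 0.54 (1.45-fold).

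For other members the arrays of the lines overlapped before any further scaling. CDC20, which activates the anaphase-promoting complex, had 1905 and 1737 in H1 differentiation 1, 2118 and 1767 in H1 differentiation 2, and 2159 and 2074 in HUES8 (0.17 ± 0.34), and the spread between its H1 arrays was as wide as the gap to HUES8. Cyclin A2, CCNA2, active in S phase and G2, read 424 and 457 in H1 differentiation 1, 404 and 427 in H1 differentiation 2, and 421 and 345 in HUES8 (-0.16 ± 0.34), with only the processed HUES8 array below the H1 range. UHRF1, which carries DNA methylation over to the new strand, had 507 and 635 in H1 differentiation 1, 496 and 419.9 in H1 differentiation 2, and 418 and 451 in HUES8 (-0.22 ± 0.35) and an H1 range that reached down to the HUES8 values.

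In all, both HUES8 arrays were below the 4 H1 arrays for 14 of 46 members (18.5% of all genes): MCM2, MCM4, MCM5, MCM6, TK1, PLK4, AURKA, FOXM1, CDCA3, AURKB, KIF20A, KIF23, DLGAP5 and MKI67. They were above them for 4 (18.8% of all genes): GINS2, TYMS, TPX2 and HMMR, and 28 were in neither class. After scaling to a common median 9 of the 14 remained below (15.2% of all genes), TK1, MCM6, PLK4, KIF23 and MKI67 leaving the class, and 6 members were above (23.2%). After quantile normalization 13 members were below (18.5% of all genes) and 5 above (19.2%). There TK1, MCM6 and KIF23 left the class below, and UBE2C and CDCA5 entered it. At 1.5-fold or more, 6 members were lower (AURKB, FOXM1, CDCA3, KIF20A, TK1 and DLGAP5; 9.93% of all genes) and 2 higher (EPR1 and TYMS; 8.54%).

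**Figure D4:**
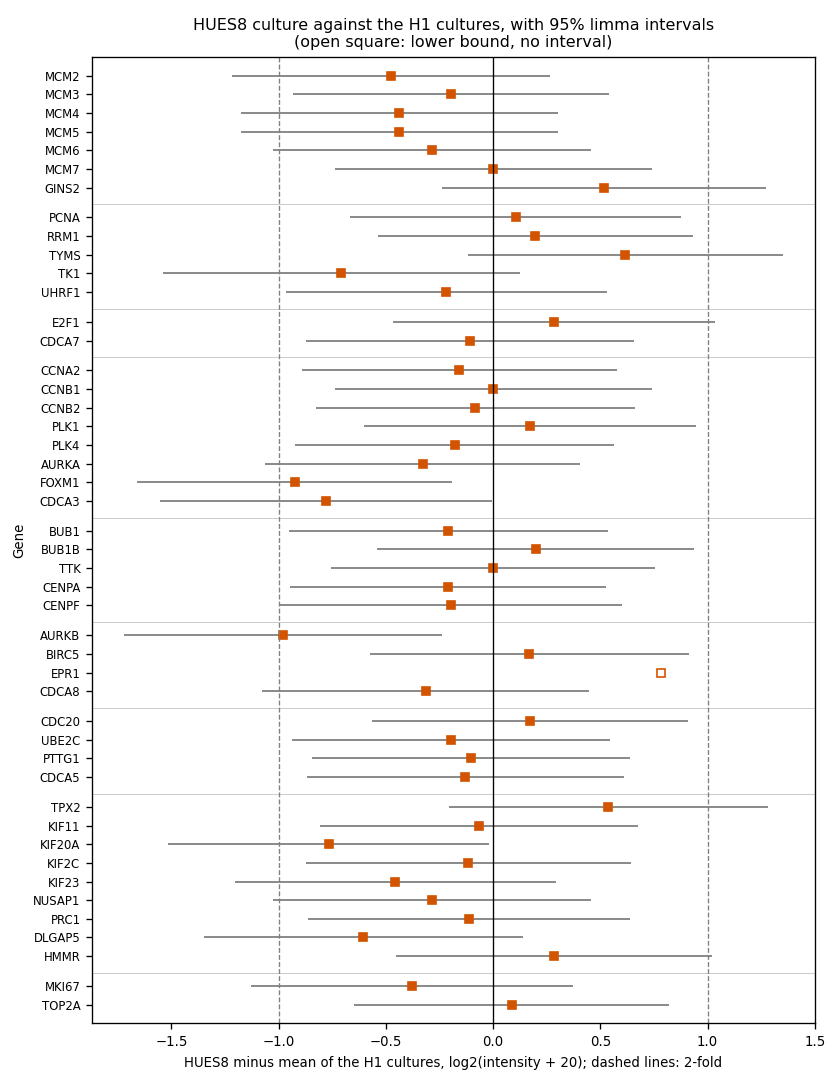
HUES8 minus the mean of the H1 cultures on the log2(intensity + 20) scale for the 46 tested members, ordered by role. Squares are the differences and grey lines their 95% limma intervals, which rest on 3 cultures; dashed lines mark 2-fold. AURKB (-0.98) and FOXM1 (-0.92) have the lowest differences. EPR1 is drawn as an open square at its lower bound (0.78, with the H1 arrays below 40 set to 40), without an interval.

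Markers of other cells were summed on each array. The HUES8 range of these sums lay outside the H1 range for hepatic and gut, progenitor, neural and pluripotent markers. It lay inside the H1 range for mesenchyme and endocrine markers. The list of hepatic and gut endoderm markers summed to 13920 to 20140 on the H1 arrays and 3074 to 3831 on the HUES8 arrays, with 9 of 11 called lower, and of foregut and pancreatic progenitor markers 4 of 9 tested were called lower (5278 to 8747 against 2469 to 3026). Neural markers summed to 1550 to 1944 in H1 and 3014 to 4084 in HUES8 (0 of 8 called), mesenchyme markers to 5670 to 9771 and 7934 to 8146 (0 of 9), endocrine markers to 19700 to 29070 and 23180 to 25340 (1 of 10 higher), and pluripotent markers to 3681 to 4856 and 5001 to 5838 (3 of 7 lower). In the pluripotent list SOX2 (651 to 1107 in H1, 2069 and 2124 in HUES8) and LIN28 (1756 to 2404 and 2547 to 3275) were higher in HUES8. The 5 other tested genes of that list had differences below 0, although the sum was higher. AFP, the fetal liver marker, was at 22.9 and 33.6 in HUES8 and at 6123 or above in H1, and the pluripotency factors POU5F1 and NANOG stayed below 40 on every array. Insulin, the marker of the labelled cells, was measured at 1898 or above on each array. The part of these markers in the member values was not tested.

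The third comparison asked whether processing acted differently in HUES8 than in H1. No member was called, against 33 genes over the table (percent called 0.261, with 0.237 higher and 0.0237 lower in HUES8; 0 genes were called after scaling to a common median and 0 without a filter), and none had an unadjusted p under 0.05 (4.43% of all genes). The lowest differences of the processing effect, HUES8 minus H1, were those of KIF23, a kinesin of the midbody, at -0.62 ± 0.38 (SE, alike for all genes), CDCA8 at -0.38 and CENPA, the centromeric histone, at -0.38. KIF23 had intensities of 98.5 and 111 in H1 differentiation 1, 118 and 149.8 in H1 differentiation 2, and 95.6 and 67.7 in HUES8, so that the processed sample was higher in both H1 pairs and lower in HUES8. The highest were E2F1 (0.44), which activates the replication genes and was measured at only 42.7 to 75.3, CDCA3 (0.39) and CENPF, a kinetochore protein (0.34). The half-width of the 95% interval was 0.74 for every gene, since this fit gave all genes 1 common variance, and 29 of 46 member intervals lay inside 2-fold (59.9% of all genes).

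The H1 cultures differed from each other without a test, as each is 1 culture. Past 1.5-fold there were 3 of 46 members against 17.1% of all genes. CENPF was higher in differentiation 2, with 431 and 513 in H1 differentiation 1, 851 and 679 in H1 differentiation 2, and 467 and 579.5 in HUES8 (0.67 on the log2 scale), where 6.74% of all genes were 1.5-fold or more higher. TK1 was lower (-0.84), its H1 differentiation 2 values being nearer to those of HUES8 than to those of H1 differentiation 1. Next to these came CDCA7, a MYC and E2F target (0.46), and TTK (0.38) on the higher side and CDCA3 (-0.52) on the lower. Between these cultures hepatic and gut markers summed to 19930 and 20140 in differentiation 1 and to 14890 and 13920 in differentiation 2, while mesenchyme markers summed to 5952 and 5670 and to 9771 and 8453. Foregut and pancreatic progenitor markers summed to 7683 and 8747 in differentiation 1 and 5278 to 5522 in differentiation 2, and endocrine markers to 26820 to 29070 and 19700 to 25530. Their part in the member values was not tested. Both arrays of differentiation 2 lay below both of differentiation 1 for 19 members (32.5% of all genes) and above them for 12 (26.9%). The member median was -0.09 and that of all genes -0.04.

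EPR1 stood apart from every other member in this contrast (10.4% of all genes were 1.5-fold or more lower). The symbol matches no current RefSeq gene; EPR-1 is listed as an older name of both BIRC5 and ELF3, so the transcript its probe reads is not settled, and signal of overlapping or antisense transcripts could not be separated. Its intensities were 133 and 127 in H1 differentiation 1, 18.8 and 6.73 in H1 differentiation 2, and 161 and 128 in HUES8. Both arrays of H1 differentiation 2 were below 40, and the 4 others were at 127 or above, live and processed alike. With the dim arrays set to 40 and 20 added to every array, H1 differentiation 1 was at least 2.50-fold and HUES8 at least 2.73-fold higher than H1 differentiation 2, while HUES8 and H1 differentiation 1 differed by 1.09-fold.

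BIRC5, an inhibitor of apoptosis that also anchors the passenger complex, did not follow this pattern. Its difference between the H1 cultures was -0.27, and that of ELF3, an epithelial transcription factor, was -0.72. Against the mean of the H1 cultures, with the dim arrays at 40, EPR1 was at least 1.72-fold higher in HUES8, and it was 0.12 on the log2 scale against H1 differentiation 1 alone. Leaving EPR1 out, the member median of HUES8 minus H1 was -0.16 and the number of called members stayed at 0.

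**Figure D5:**
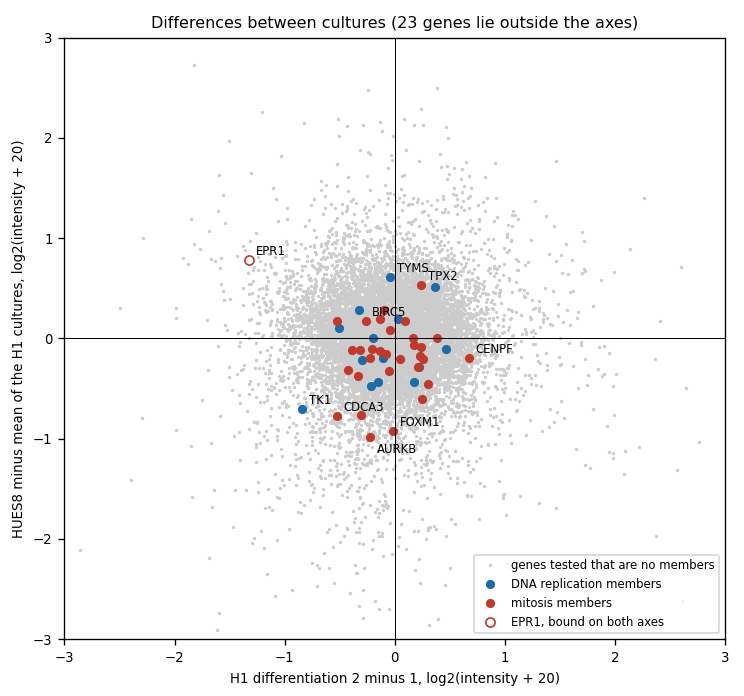
Difference between the H1 cultures (differentiation 2 minus 1, horizontal axis) against HUES8 minus the mean of the H1 cultures (vertical axis), both on the log2(intensity + 20) scale. Grey points are the other genes tested, blue points replication members and red points mitosis members; 23 genes lie outside the axes. The axes share the H1 arrays, so no correlation is read from the plot; EPR1, the open point, is drawn at its bounds of -1.32 and 0.78.

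Further genes of the pathway, from lists held beside the members, were called in no comparison either. Tested were 36 genes of DNA replication, 42 of mitosis, and 17 G1 cyclins, kinases and E2F or MYC factors. A list of CDK inhibitors, RB family and growth arrest genes had 11. For each list the count called was 0 in each of the 3 tests, where 0%, 1.73% and 0.261% of all genes were called. The median HUES8 minus H1 differences of the lists were 0.02, -0.05, 0.01 and 0.11, and that of all genes was 0.02. The lowest of the replication list was POLE, the catalytic subunit of polymerase epsilon, with 332 and 466 in H1 differentiation 1, 339 and 346 in H1 differentiation 2, and 181 and 174 in HUES8 (-0.97, adjusted p = 0.239), and then RPA1, a single-strand binding protein (-0.46), while PRIM1, a primase subunit (0.47), and CDT1, a licensing factor (0.46), were the highest.

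In the mitosis list the lowest were ESPL1, the separase that cuts cohesin, with 175 and 222 in H1 differentiation 1, 173 and 198 in H1 differentiation 2, and 72.0 and 81.1 in HUES8 (-1.13, adjusted p = 0.132), and TROAP (-0.97, adjusted p = 0.240), and the highest NEK2, a centrosomal kinase (0.55), and ECT2, which starts cytokinesis (0.48). ESPL1 showed the order seen for AURKB, both HUES8 arrays below all H1 arrays. Of the G1 genes, MYC read 180.0 and 165 in H1 differentiation 1, 168 and 146 in H1 differentiation 2, and 341 and 323 in HUES8 (0.93, adjusted p = 0.269) and CDK6, a partner of the D cyclins, was at 0.82, with CDK2 (-0.78) and CCNE1 (-0.48) at the other end. The CDK inhibitors CDKN1A (p21) and CDKN1B (p27), which hold cells in G1, had the highest values of their list, 0.69 and 0.62, and CDKN1A read 135 and 160.4 in H1 differentiation 1, 157 and 177 in H1 differentiation 2, and 246 and 284 in HUES8. At the low end were BTG2 (-0.55) and GADD45B (-0.32).

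Between processed and live samples the same lists had medians of -0.11, -0.03, -0.03 and -0.03 (-0.03 over all genes). The lowest were ORC1L, an older symbol of an origin recognition subunit (-0.37), of replication, SPC25 (-0.33) and MAD2L1 (-0.26) of mitosis, CDK4 (-0.40) and MYCN (-0.21) of G1, and GADD45A (-0.40) and BTG1 (-0.34) of arrest. The highest were ORC2L (0.29) and POLD1 (0.23), INCENP (0.52) and KIF14 (0.23), CDK2 (0.26) and CDC25A (0.21), and CDKN1A (0.19) and RB1 (0.18). INCENP, the scaffold of the passenger complex, was higher in each pair, with 82.3 and 126 in H1 differentiation 1, 76.7 and 82.9 in H1 differentiation 2, and 53.7 and 124 in HUES8 (adjusted p = 0.450). All tested genes of these lists had 95% intervals inside 2-fold, as did 97.9% of all genes.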

How the data were processed

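RNA of 6 samples was hybridised to Illumina Human HT-12 arrays, 1 per sample, and the number of arrays limits the precision. The deposited intensities are linear values with 1 row per gene symbol, which the authors background-subtracted and rank-invariant normalized in GenomeStudio; the offset of their methods had not been added, and 4.37% of values were below 0. A further table of 12 columns, 6 of signal and 6 of detection p-values, was not used here since its column names match no sample label.

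Negative values were raised to 0 and log2(intensity + 20) was computed, the offset being that of the methods; it understates changes of dim genes. The test covered genes that reached 40 on 3 or more arrays (12653, 40.3%). The comparison of processed with live samples used lmFit and eBayes of limma 3.58.1 (R 4.3.3) and took the differentiation as a block; each culture was split, and deviations from group means correlated at 0.79, 0.62 and 0.81 within pairs. Lines were compared on 3 culture means, and the processing effect on 3 within-pair differences, each with 1 residual degree of freedom and the single HUES8 culture assumed to vary like H1. P-values were Benjamini-Hochberg adjusted over all tested genes, under 0.05 being called. Replicates are separate differentiations. H1 differentiations were compared by size only, at 1.5-fold. Fits were tested on simulated data.

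Members, pathway lists and cell type lists were chosen with earlier results of these data known. Named genes were MKI67, TOP2A, PCNA, CCNB1 and EPR1, every called member, the 3 highest and 3 lowest members of each comparison, members too dim to test, and the 2 highest and 2 lowest of each further list, of which 1 is not reported here. Other members were named after their values were seen. Promoters came from a RefSeq table (GRCh38.p14) with Python 3.11.15 and pandas 2.3.3.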

Additional observations from a re-analysis of the deposited data

How the results depend on the processing

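No member was called in any comparison under any alternative run: arrays scaled to a common median, quantile normalization, an offset of 50, the intensity minimum on all 6 arrays, no filter, an intensity trend, leaving out a differentiation, and, where they apply, no replicate block, the methods' t-test, a single kind of array and a random block. The smallest member adjusted p ranged from 0.147 (AURKB, without replicate 2) to 1.0 between processed and live samples and from 0.158 (random block) to 0.887 (no filter) between the lines. The cause of the changes below was not tested.

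Without the block for pairs, 0 genes were called between processed and live samples (192 at an unadjusted p under 0.05), and the methods' t-test called 0 (320 unadjusted). With the block, leaving out 1 differentiation gave 12 to 688 genes called, 105 without differentiation 1, 688 without differentiation 2 and 12 without differentiation 3, with member medians of -0.07 to 0.002. Between the lines, 142 genes were called with an offset of 50, 80 with the minimum on all 6 arrays, 0 without a filter, 111 on live and 128 on processed arrays only, and the member median was -0.18 to -0.13 with 1 H1 culture left out. For the difference in processing effect, 0 genes were called after scaling to a common median and 0 without a filter, 9 with an offset of 50 and 15 with an intensity trend; the member median was -0.183 after scaling and -0.108 to -0.0219 with 1 H1 pair left out. The member median of H1 differentiation 2 against 1 was -0.0342 on live arrays, -0.137 after scaling and -0.0227 after quantile normalization. Scaling to a common median gave 9 members with HUES8 below all H1 arrays and 9 with processed above live in all pairs, and quantile normalization 5 of the latter.

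The following values changed sign. Processed against live, CCNB1 was at 0.0052 after scaling and at -0.215 to 0.0382 with 1 differentiation left out (0.0024 without replicate 2), and TOP2A at -0.0111 to 0.107 with 1 left out. HUES8 against H1, CCNB1 was at -0.0100 after quantile normalization and -0.144 on processed arrays, and PCNA at -0.0085 on live arrays; with 1 H1 culture left out, PCNA was at -0.149 to 0.359 and CCNB1 at -0.0802 to 0.0806. For the difference in processing effect, MKI67 was at -0.0435 after scaling and -0.00266 after quantile normalization, and EPR1 at -0.074 after scaling, -0.0804 after quantile normalization and -0.0866 with an offset of 50, and at -0.238 to 0.242 with 1 H1 pair left out. H1 differentiation 2 against 1, CCNB1 was at -0.0564 on processed arrays, and TOP2A at 0.0239 on live arrays and 0.0713 after quantile normalization. The non-normalized table could not be tied to samples, so the alternative built on it was not run, and leaving out an H1 culture gives the line values without a test. CDC6 and CCNE2 lie below the minimum of 40 on every array, and RRM2 and MKI67 lie around it, which limits what can be read from them.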
